A study of Homo sapiens with 35 samples.

Results

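MYC, MAX and their antagonists were followed in the established multiple myeloma line RPMI-8226, through a pulse of the proteasome inhibitor carfilzomib and the recovery after it. The 8 genes were MYC, its obligate partner MAX, and the antagonists MNT, MGA, MXD1, MXD3, MXD4 and MXI1, each taken by symbol among the 19665 protein-coding entries of the deposited count table. All 8 were found and all 8 had counts, so that all were among the 17999 entries tested. Day 0 cells were collected before carfilzomib was added according to the methods of the study, although the labels list the drug for day 0 as well. Cells of days 1, 2, 4, 6, 8 and 10 had received 750 nM carfilzomib for 1 h, were washed and were kept in drug-free medium that was changed every 48 h. Each of the 7 days had 5 libraries. All come from 1 cell line. The methods of the study describe subcultures split from a single expanded culture, whereas its legends speak of independent experiments for the same data, and this difference could not be settled. P-values measure the spread between libraries of the same day, which the edgeR fits estimate over all 35 libraries together. If the subcultures share a culture, this spread does not include that between separate experiments.

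Depth ranged from 6519392 to 10962890 counts per library, with a median of 7643975, of which 5373835 to 9307889 were protein-coding. All 8 plasma cell markers checked were detected in every library, among them SDC1 (the surface marker CD138) at 210 to 362 CPM (counts scaled to the normalized library size) and XBP1 at 370 to 498 CPM. Their level was not constant. On day 1, 5 of the 8 were lower (TNFRSF17 by 1.93, JCHAIN by 1.73, CD38 by 1.53, IRF4 by 0.62 and SDC1 by 0.46 on the log2 scale) and none was higher, and their sum went from between 5961 and 6856 CPM before the drug to between 2391 and 2698 CPM, on the day on which MAX and MXD3 moved most. XBP1, PRDM1 and SLAMF7 were not called on day 1, when 27.3% of all entries tested were lower and 25.4% higher. Most of the sum was JCHAIN, with a mean of 4757 ± 360 CPM before the drug and 1437 ± 88.7 CPM on day 1 (SD, n = 5). By day 10 the sum was 6551 to 7894 CPM. Its part in the results below was not tested. Of the 11 markers of other cell types, COL1A2 (fibroblasts) was at 0 in every library, and CD3D (T cells), LYZ (myeloid cells) and HBB (red cells) did not exceed 0.169, 0.317 and 0.463 CPM. Other markers of the same or further types were above these. COL1A1 (fibroblasts) was at up to 1.43, and CSF1R and CD14 (myeloid cells) at up to 1.202 and 2.15 CPM. CD3E was at up to 4.81, HBA1 at up to 5.02 and PECAM1 (endothelium) at up to 7.94 CPM. From day 0 means of 0.667 and 0.323 CPM, COL1A1 was lower on day 1 (-2.576 ± 0.825) and CD14 higher on day 2 (1.899 ± 0.686). CD3E was lower on days 1 (-2.12 ± 0.33) and 2 (-1.58 ± 0.31), PECAM1 was lower on day 1 (-1.09 ± 0.27) and higher on days 4 (1.37 ± 0.22) and 6 (0.93 ± 0.23), and HBA1 was higher on every day from day 2 on, by 1.69 to 2.25. EPCAM, an epithelial marker, was far above the rest at 43.97 to 95.7 CPM and rose by 0.42 ± 0.08 (SE) on the log2 scale on day 1 (edgeR, Q = 2.51e-05). Without EPCAM, the detected markers of other cell types summed to 6.26 to 9.22 CPM on day 0, to 2.99 to 5.15 CPM on day 1 and to 12.4 to 15.2 CPM on day 4, and their part in the results below was not tested.

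MYC is a basic helix-loop-helix leucine zipper transcription factor that binds DNA only as a dimer with MAX, most strongly at the E-box CACGTG, where it recruits acetyltransferases and elongation factors to genes of growth, ribosome production and metabolism. MNT, MGA and the proteins of the MXD family, to which MXI1 also belongs, dimerize with the same MAX and occupy the same E-boxes, but MNT and the MXD proteins bring the SIN3 and histone deacetylase corepressor and MGA is a subunit of a variant Polycomb complex. MYC mRNA and protein are both short-lived, the protein is destroyed by the proteasome, and high MYC activity is a frequent feature of multiple myeloma.

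The E-box is also a way in which these genes can be targets of their own network. RefSeq start sites (GRCh38.p14) gave 12 promoter windows for 7 of the 8 genes, each of the 250 bases before the start. MYC was not among the entries matched, and 7 of the 12 windows, both of MAX among them, belong to internal starts that lie inside the gene as GENCODE 44 draws it. CACGTG, which reads the same on both strands, was found in 2 of the 12 windows, compared with 6.34% of all 35116 windows in the table and 7.56% of those of tested symbols. The windows are shown for the 2 antagonists that hold the motif, in capitals. The MNT window is chr17:2401061-2401310 on the minus strand, with the E-box beginning 193 bases before the start. The MXD4 window is chr4:2262110-2262359 on the minus strand, with the E-box beginning 238 bases before the start.
MNT promoter: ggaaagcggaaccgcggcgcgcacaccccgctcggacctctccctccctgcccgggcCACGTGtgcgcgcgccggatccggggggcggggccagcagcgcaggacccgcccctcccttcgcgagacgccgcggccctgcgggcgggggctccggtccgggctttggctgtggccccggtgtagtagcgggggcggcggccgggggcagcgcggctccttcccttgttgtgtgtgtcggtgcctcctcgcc
MXD4 promoter: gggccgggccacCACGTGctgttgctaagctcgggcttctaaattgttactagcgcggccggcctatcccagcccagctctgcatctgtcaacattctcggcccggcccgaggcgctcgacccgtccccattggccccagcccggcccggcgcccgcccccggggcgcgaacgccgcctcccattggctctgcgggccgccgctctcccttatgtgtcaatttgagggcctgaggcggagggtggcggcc
As described below, MNT was called lower on all 6 days, and MXD4 lower on day 2 and higher on days 6 and 8. The 2 genes with an E-box in this window thus shared a direction on day 2 and not on days 6 and 8. The match is a description of sequence and not of binding, which was not measured.

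Before the drug, MYC was by far the most abundant of the 8 transcripts. Divided by the length of the canonical transcript (GENCODE 44, GRCh38, the source of all gene positions given here), its day 0 level was 264 ± 25.4 (SD, n = 5) CPM per kilobase. The 6 transcripts next in order were MXD4 at 16.8 ± 1.36, MXI1 at 15.1 ± 1.30, MXD3 at 14.7 ± 3.57, MNT at 14.3 ± 0.973, MAX at 12.6 ± 2.16 and MXD1 at 8.34 ± 1.24 CPM per kilobase (SD, n = 5 each). The ranges of each of these and of its neighbour in the order overlapped, so neighbours in this order did not differ beyond their spread, although every library of MXD1 (6.52 to 9.89) lay below every library of MXD4, MXI1, MXD3 and MNT. MGA, with the longest transcript (12193 bases, 24 exons), was last at 4.33 ± 0.491 CPM per kilobase and did not overlap with MXD1. On day 1, MAX stood second at 34.9 ± 2.51 CPM per kilobase, above every library of MXD4, which came next at 16.5 ± 1.68 CPM per kilobase. MAX kept the second place on every later day except day 8, when it stood after MXD4 and its range overlapped with those of MXD4 and MXI1. All these levels are of protein-coding entries only. MAX also has an entry annotated for nonsense-mediated decay, described below, with means of 11.5 CPM on day 0 and 3.76 CPM on day 1. The protein-coding entry of MAX was at 25.3 and 70.1 CPM on these days. The order over all entries of a gene was not computed, and the place of MAX on day 0 depends on this division.

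All 8 genes differed among the 7 days (edgeR quasi-likelihood F test over day, Q from 7.36e-14 for MAX to 8.47e-05 for MXD3), in a dataset in which 64.7% of all entries tested did so. All 8 pass a filter on low counts, as 12340 entries do, and among those the share called was larger, at 70.8%, 64.7%, 53.9%, 47.9%, 50.6% and 44.6% on days 1, 2, 4, 6, 8 and 10. Against day 0, 6 of 8 were called (Q ≤ 0.05) on day 1, when 52.7% of all entries were called, and 3 of them rose (25.4% of all entries) and 3 fell (27.3%). On day 2, 6 were called (47.7% of all entries), of which 2 rose (23.2%) and 4 fell (24.4%). On day 4 there were 6 calls (39.1%), 3 higher (19.0%) and 3 lower (20.1%), and on day 6 there were 5 (34.5%), 4 higher (17.5%) and 1 lower (17.0%). On day 8, 7 were called (36.8%), 5 higher (18.2%) and 2 lower (18.6%), and on day 10 the count was 6 (31.9%), 4 higher (16.1%) and 2 lower (15.8%). Most of these changes were small. A call with a fold change above 2 was made for MAX and MXD3 on day 1 (20.4% of all entries), for MNT on day 2 (15.3%) and for MAX on day 6 (6.71%), and for none of the 8 on days 4, 8 and 10, when 9.41%, 8.18% and 5.93% of all entries passed. The 6 comparisons share the day 0 libraries, so their calls are not independent of each other. In RNA of a whole culture, a smaller share of cells that express a gene and less of its RNA per cell cannot be told apart.

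**Figure D1:**
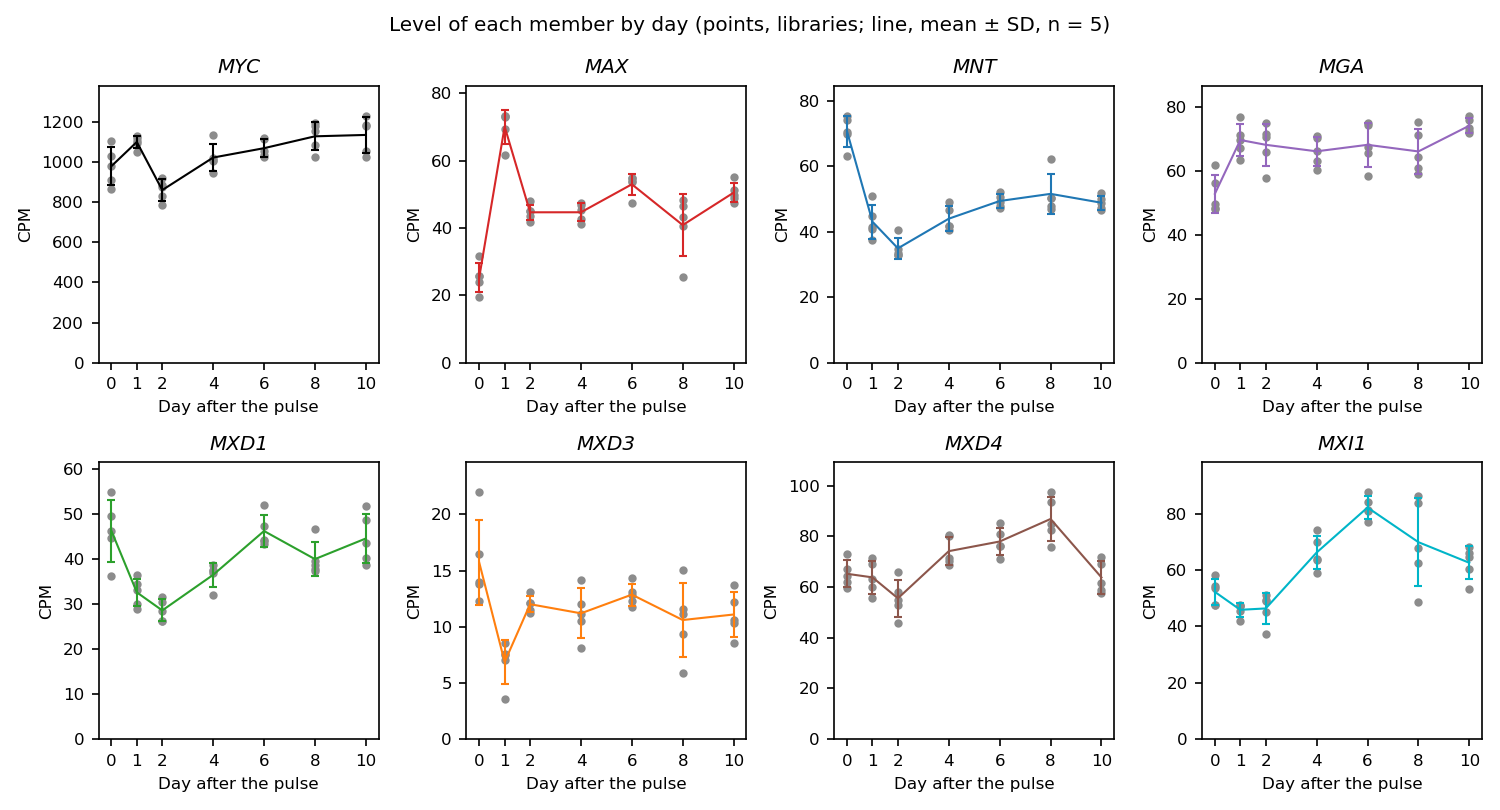
Level of each of the 8 genes in CPM (vertical axis, starting at 0, scaled separately in each panel) by day after the pulse. Grey points are libraries and the coloured line joins day means with SD bars (n = 5); MAX rose from a mean of 25.3 to 70.1 CPM on day 1, MNT fell from 70.6 to 34.9 CPM on day 2, and MYC stayed between 789 and 1233 CPM in all libraries.

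MYC (chromosome 8, 3 exons), the activating member, moved little. It was at 914, 1032, 868, 984 and 1107 CPM in the 5 day 0 libraries and at 1099, 1119.5, 1053, 1105 and 1132 CPM on day 1, a range that lies in the upper part of that of day 0 and beyond it. The mean went from 981 ± 94.5 to 1102 ± 30.1 CPM (SD, n = 5), a log2 fold change of 0.17 ± 0.06 (SE, edgeR, Q = 0.0154), and the call was lost without day 0 replicate 1 (0.12), without day 0 replicate 3 (0.13) or without day 1 replicate 5 (0.14). On day 2, MYC was at 889, 923.5, 830, 789 and 877 CPM, below every day 1 library. It fell by 0.35 ± 0.06 from day 1 to day 2 (Q = 3.20e-06). Against day 0 the day 2 difference was -0.19 ± 0.06 (Q = 0.00784), and it was not called without scaling factors (-0.06). MYC did not pass on day 4 (0.06, 95% interval -0.05 to 0.18) or day 6 (0.13, 0.01 to 0.24), although both were called without scaling factors (0.17 and 0.18). The levels of days 8 and 10 were 0.20 ± 0.06 (Q = 0.00502) and 0.21 ± 0.06 (Q = 0.00411) above day 0, with overlapping groups. The largest difference of MYC from day 0 on any day was thus 1.16-fold.

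MAX (chr14:65006174-65102695, minus strand, 5 exons in the canonical transcript), the partner without which MYC does not bind DNA, showed the largest rise of the group. Its protein-coding entry was at 23.9, 31.6, 19.5, 25.7 and 25.8 CPM on day 0, and at 61.6, 69.4, 73.2, 73.1 and 73.4 CPM on day 1. Even the lowest day 1 library lay far above the highest day 0 library. The log2 fold change was 1.47 ± 0.10 (SE, edgeR, Q = 7.06e-16), a 2.77-fold rise. MAX then fell by 0.65 ± 0.10 from day 1 to day 2 (Q = 2.89e-07), to a mean of 44.7 ± 2.29 CPM (SD, n = 5), and it did not go back to its starting level within the period sampled. On days 2 and 4 it remained higher than before the drug by 0.82 ± 0.11 (Q = 1.21e-08 and Q = 2.79e-08). The difference was 1.06 ± 0.10 on day 6 (Q = 4.61e-11), it went down to 0.70 ± 0.11 on day 8 (Q = 9.06e-07), and it ended at 1.00 ± 0.11 on day 10 (Q = 3.90e-10). On day 10 the 5 libraries were at 51.4, 49.9, 48.8, 55.0 and 47.5 CPM, all above day 0. Day 8 was the only day on which MAX overlapped with day 0, through replicate 5 at 25.5 CPM, where the other 4 libraries of that day were at 40.5 to 48.4 CPM. Without that library the day 8 difference was 0.84. The fall from day 6 to day 8 (-0.37 ± 0.10, Q = 0.0308) was lost without it (-0.23), as it was without day 6 replicate 1, 2, 3 or 4 or day 8 replicate 2. The rise from day 8 to day 10 (0.30 ± 0.10, Q = 0.0479) was lost on leaving out any 1 of 8 of the 10 libraries, day 8 replicate 1, 2 or 5 or any of day 10, and was 0.17 without day 8 replicate 5.

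The rise of MAX was unequal among its transcript classes. The count table holds a gene once for each transcript biotype, and MAX also has an entry for transcripts annotated as targets of nonsense-mediated decay, the pathway that degrades RNA with premature stop codons, and one for retained introns. The nonsense-mediated decay entry had a mean of 11.5 ± 2.10 CPM before the drug and of 3.76 ± 2.58, 4.91 ± 2.85, 8.65 ± 3.98, 10.4 ± 3.34, 12.9 ± 7.78 and 8.54 ± 4.13 CPM on days 1, 2, 4, 6, 8 and 10 (SD, n = 5). It was thus lowest on day 1, when the protein-coding entry was highest, and its mean was close to or above that of day 0 on days 6 and 8, when the protein-coding entry was still higher. The retained-intron entry had 0 to 21 counts in any library and was at 1.93 ± 0.744 CPM on day 0 and 2.30 ± 0.880 CPM on day 1. The protein-coding share of MAX counts was 59.2%, 74.3%, 60.6%, 69.2% and 62.6% on day 0 and 86.4%, 97.4%, 92.3%, 92.6% and 91.6% on day 1. Between the highest share of day 0 (95% Wilson interval 68.7% to 79.1%) and the lowest of day 1 (83.1% to 89.2%) the intervals did not meet, and they cover counting error only. The mean share rose from 65.2% ± 6.36 to 92.0% ± 3.90 on day 1, and the means of days 2, 4, 6, 8 and 10 were 88.4% ± 5.65, 81.9% ± 6.12, 81.1% ± 4.30, 73.0% ± 15.8 and 83.4% ± 6.23 (SD, n = 5). In an exact two-sided permutation test the difference reached the smallest p that 5 against 5 allow, 0.00794, on days 1, 2, 6 and 10. Over the 36 tests (6 genes with enough counts on 6 days) no share passed the adjustment (q = 0.0714 for these) and 9 had an unadjusted p of at most 0.05. On these days the shares of MAX did not overlap with day 0, and p cannot go lower. The missed threshold is therefore no measure of how far the shares lay apart. Day 8 replicate 5, the library in which MAX was low, had a share of 46.0% (40.4% to 51.8%), from 133 protein-coding counts of 289.

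**Figure D2:**
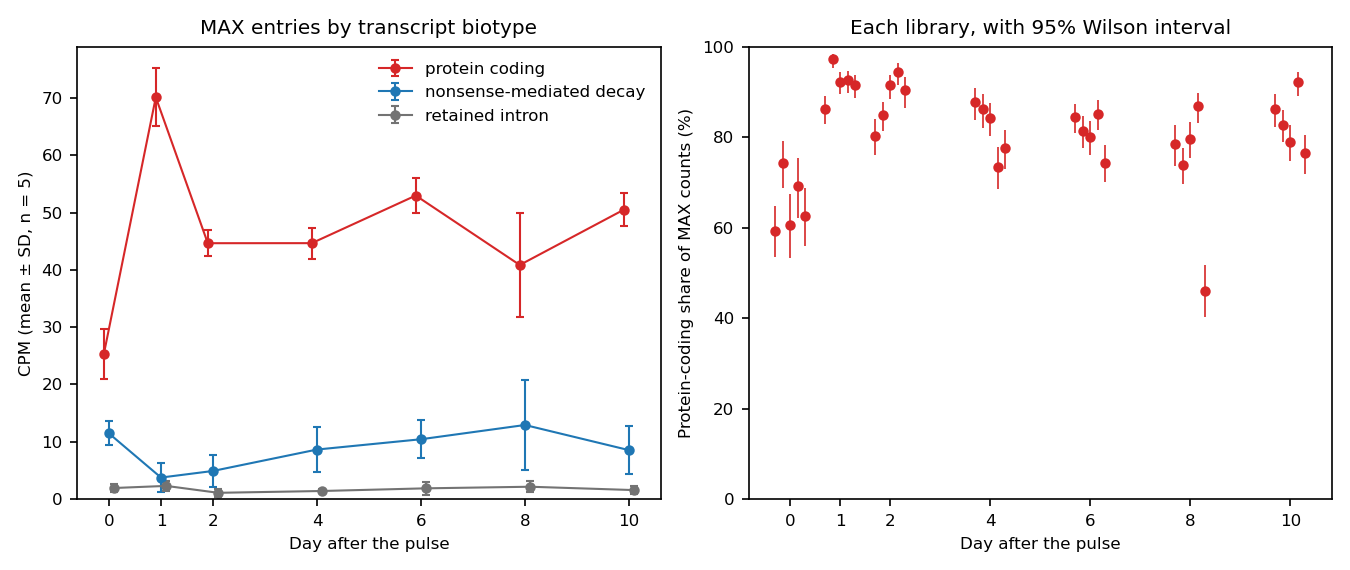
MAX by transcript class against day after the pulse. Left, CPM of the protein-coding, nonsense-mediated decay and retained-intron entries (mean ± SD, n = 5); right, the protein-coding share of MAX counts in percent in each library with its 95% Wilson interval. The shares ran from 59.2% to 74.3% on day 0 and from 86.4% to 97.4% on day 1, and the lone low point on day 8 is replicate 5 at 46.0%.

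Summed over all biotypes, an alternative chosen after the shares had been seen, MAX was called higher on all 6 days with smaller differences, of 1.04, 0.45, 0.54, 0.77, 0.56 and 0.67 on the log2 scale in the order of the days. A 2.06-fold rise on day 1 thus held for the gene as a whole, against 2.77-fold for the protein-coding entry. The scaling of libraries also differs between these fits. MYC, which has only a protein-coding entry, was at 0.24 in symbol totals and at 0.17 in the main fit on day 1. How the estimation divides reads among transcripts that share exons could move these entries against each other, and its part was not tested.

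MNT (chr17:2384073-2401104, minus strand, 6 exons), the antagonist present in most proliferating cells, went the opposite way. It was at 75.4, 74.1, 69.7, 63.1 and 70.5 CPM on day 0, at 50.9, 37.3, 40.8, 41.3 and 44.6 CPM on day 1 and at 40.5, 34.7, 32.8, 32.8 and 33.5 CPM on day 2. Every library of every later day lay below every day 0 library. MNT is the only one of the 8 genes for which this held on all 6 days. Of all entries, 40.9%, 36.7%, 28.2%, 24.7%, 25.2% and 22.8% had no overlap with day 0 in either direction on days 1, 2, 4, 6, 8 and 10. The margin of MNT was narrow on day 8, with replicate 1 at 62.2 CPM beside day 0 replicate 4 at 63.1 CPM. Their scaling factors were 1.02 and 0.929, so that the separation of day 8 depends on the scaling. The log2 fold change was -0.72 ± 0.08 on day 1 (SE, edgeR, Q = 1.11e-10) and -1.02 ± 0.08 on day 2 (Q = 7.12e-15). MNT rose again by 0.33 ± 0.08 from day 2 to day 4 (Q = 8.66e-04), and no later step between neighbouring days was called. It ended at 51.7, 46.5, 47.3, 48.6 and 49.9 CPM on day 10, which was still -0.54 ± 0.08 against day 0 (Q = 2.41e-07), a 1.45-fold fall.

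MGA (chr15:41621134-41773081, plus strand), the scaffold of a Polycomb complex that combines a T-box with a MAX-binding domain, was higher on all 6 days by a similar amount. It was at 61.7, 48.4, 56.1, 49.7 and 47.9 CPM on day 0 and at 67.0, 71.1, 76.7, 63.5 and 69.7 CPM on day 1, where the groups did not overlap. Its differences from day 0 were 0.39 ± 0.08 (Q = 4.43e-05) on day 1, between 0.32 and 0.37 on days 2, 4, 6 and 8 with overlapping groups, and 0.48 ± 0.08 (Q = 3.76e-06) on day 10. The day 10 libraries, at 77.2, 72.3, 75.7, 73.2 and 71.9 CPM, were the most uniform. MGA did not pass between any neighbouring days.

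MXD1 (chr2:69897688-69942945, plus strand, 6 exons), first known as MAD and induced when many cell types differentiate, fell and came back. It was at 49.5, 44.6, 54.9, 46.3 and 36.2 CPM on day 0 and at 26.3, 26.2, 30.4, 31.6 and 28.5 CPM on day 2, all below day 0. The log2 fold change was -0.51 ± 0.09 on day 1 (edgeR, Q = 9.58e-06), -0.70 ± 0.09 on day 2 (Q = 1.88e-08) and -0.34 ± 0.09 on day 4 (Q = 0.00202), and the call of day 4 was lost without scaling factors (-0.23). MXD1 then rose by 0.36 ± 0.09 from day 2 to day 4 (Q = 0.00248) and by 0.34 ± 0.09 from day 4 to day 6 (Q = 0.00751), to a mean of 46.2 ± 3.53 CPM, next to 46.3 ± 6.87 CPM on day 0 (SD, n = 5). Its difference on day 6 was -0.0026 with a 95% interval of -0.18 to 0.17, and on day 10 it was -0.06 (-0.24 to 0.12). The difference of day 8, -0.22 ± 0.09, missed the threshold (Q = 0.0579).

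MXD3 (chr5:177301461-177312757, minus strand, 6 exons), the family member linked to proliferating rather than resting cells, had the fewest counts of the 8, 21 to 123 in a library. It was at 13.8, 16.5, 22.0, 14.0 and 12.3 CPM on day 0 and at 7.50, 7.08, 3.56, 8.58 and 7.61 CPM on day 1, with no overlap. This fall of 1.19 ± 0.19 on the log2 scale (Q = 9.77e-07), or 2.29-fold, was the largest of any of the 8 genes, and it was followed by a rise of 0.81 ± 0.19 from day 1 to day 2 (Q = 6.13e-04). From day 2 on, every day overlapped with day 0. MXD3 was called lower on days 4 (-0.49 ± 0.18, Q = 0.0282), 8 (-0.58 ± 0.18, Q = 0.00938) and 10 (-0.51 ± 0.18, Q = 0.0276) and not on days 2 (-0.39, 95% interval -0.73 to -0.04) and 6 (-0.29, -0.64 to 0.06). These late calls depended on single libraries: without day 0 replicate 3, in which MXD3 was highest, the differences were -0.34, -0.43 and -0.36 and none was called. The call of day 4 was also lost without day 0 replicate 2 or day 4 replicate 3 or 5, that of day 8 without day 8 replicate 2, and that of day 10 without day 0 replicate 2 or day 10 replicate 2, 3 or 5. They were also lost in symbol totals, at -0.10 on day 4, -0.17 on day 8 and -0.09 on day 10. The retained-intron entry of MXD3 was at 4.34 ± 1.92 CPM on day 0, 1.41 ± 0.751 CPM on day 1 and 7.49 ± 0.467 CPM on day 10 (SD, n = 5), so that it was higher late while the protein-coding entry was lower.

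MXD4 (chr4:2247432-2262109, minus strand, 6 exons), a member of the family found in quiescent and differentiated cells, was called higher on days 6 and 8. It was at 64.3, 67.1, 59.5, 61.9 and 73.2 CPM on day 0 and at 75.6, 84.8, 82.6, 97.4 and 93.7 CPM on day 8, all above day 0. On day 4 the log2 fold change was 0.19 ± 0.08 and missed the threshold (edgeR, Q = 0.0757), but it passed in 8 of 17 alternatives, such as without scaling factors (0.30) and in symbol totals (0.29). It was 0.26 ± 0.08 on day 6 (Q = 0.0128) and 0.41 ± 0.08 on day 8 (Q = 7.16e-05). By day 10 it had fallen by 0.45 ± 0.08 from day 8 (Q = 1.37e-04), with all 5 libraries below those of day 8 and a difference from day 0 of -0.03 (95% interval -0.20 to 0.13). On day 2, MXD4 was lower by a small amount (-0.23 ± 0.08, Q = 0.0241), a call lost without scaling factors (-0.10), in a fit of the 2 days only (-0.19), and without day 0 replicate 5 (-0.20) or day 2 replicate 4 (-0.17). The rise from day 2 to day 4 (0.41 ± 0.08, Q = 1.05e-04) left no overlap between these days. Its retained-intron entry was at 9.56 ± 3.86 CPM on day 0, 22.8 ± 4.86 CPM on day 6 and 15.4 ± 2.62 CPM on day 10 (SD, n = 5). The protein-coding share of MXD4 was 84.4% ± 4.80 on day 0 and 74.6% ± 3.92 on day 6 (exact permutation p = 0.0238, q = 0.122, n = 5).

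MXI1 (chr10:110207605-110287365, plus strand, 6 exons), also called MXD2 and known to respond to hypoxia, had its peak on day 6. It was at 58.1, 47.6, 47.7, 53.5 and 54.3 CPM on day 0, showed no call on day 1 (-0.19, 95% interval -0.39 to 0.02) or day 2 (-0.17, -0.37 to 0.03), and was at 80.8, 87.6, 84.1, 77.1 and 81.3 CPM on day 6, all above day 0. The log2 fold change was 0.34 ± 0.10 on day 4 (Q = 0.00568) and 0.65 ± 0.10 on day 6 (Q = 8.45e-07), a 1.57-fold rise. On day 8 the 5 libraries were spread from 48.8 to 86.2 CPM, the widest range of MXI1 on any day, with a difference of 0.42 ± 0.10 (Q = 7.89e-04). The call of day 10 (0.26 ± 0.10, Q = 0.0456) was lost on leaving out any 1 of 6 libraries, day 0 replicates 2 and 3 and day 10 replicates 1, 2, 3 and 4, at 0.23 to 0.27.

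**Figure D3:**
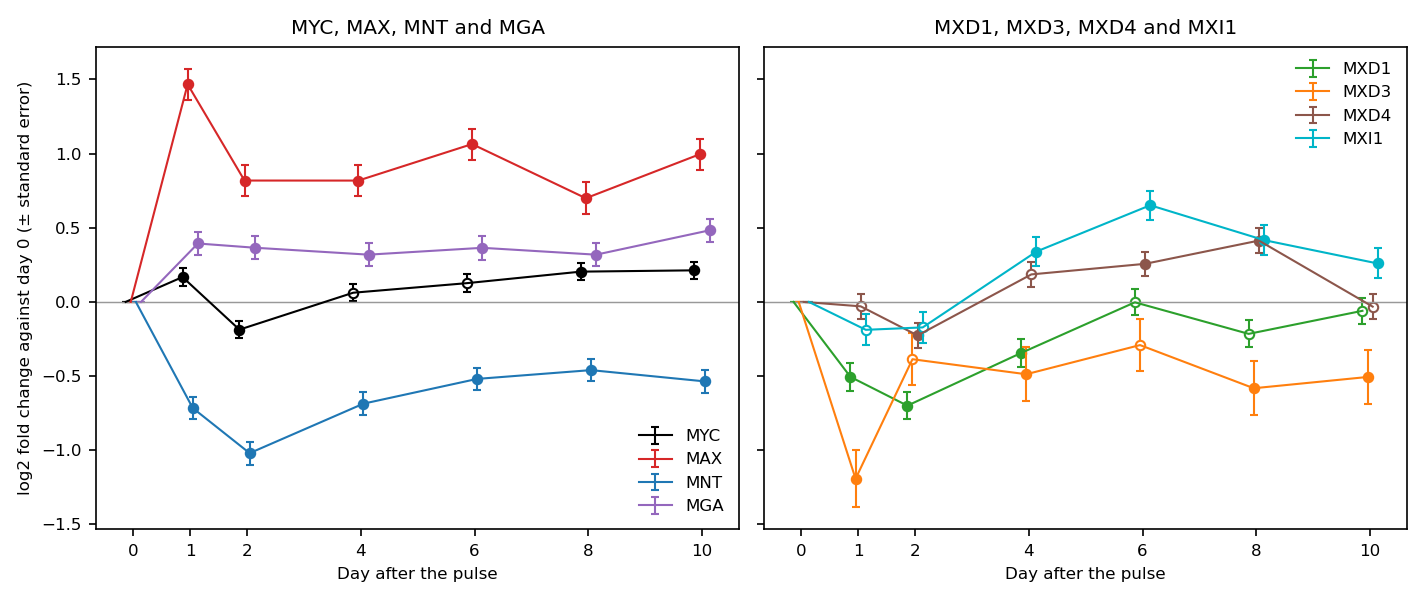
Log2 fold change against day 0 of each of the 8 genes by day (edgeR, bars ± SE, 5 libraries a day, points shifted sideways for legibility). Filled points passed Q ≤ 0.05 and open points did not; MAX is highest on every day and MNT lowest or next to lowest on every day, MXD1 returns to 0 on day 6, and MXI1 peaks at 0.65 on day 6.

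The steps between neighbouring days show when the group moved. From day 1 to day 2, 4 of 8 were called (39.6% of all entries), 1 higher (20.2%) and 3 lower (19.4%). Between days 2 and 4, 5 were called (30.6%), all of them higher (13.9% of all entries, against 16.7% lower), namely MYC, MNT, MXD1, MXD4 and MXI1. This made day 2 the low point of MYC, MNT, MXD1 and MXD4 by day means. From day 4 to day 6, MXD1 and MXI1 rose (2 of 8, where 12.1% of all entries were called, 6.09% higher and 5.98% lower), where the step of MXI1 (0.31 ± 0.10, edgeR, Q = 0.0249) was lost without any 1 of 6 of the 10 libraries, and that of MXD1 without day 6 replicate 1. Between days 6 and 8, MAX alone was called (1 of 8 and lower, where 2.56% of all entries were called, 1.03% higher and 1.53% lower). In the last step MAX rose and MXD4 fell (2 of 8, where 10.1% were called, 5.08% higher and 4.97% lower). Calls between neighbouring days that share a day are not independent.

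The balance between MYC and the others was compared within each library as the log2 ratio of their CPM, which does not depend on the scaling between libraries. Against day 0, 22 of 42 ratios (7 genes on 6 days) passed the adjusted threshold in exact two-sided permutation tests, 13 with a rise of MYC relative to the other gene and 9 with a fall. The counts were 6 of 7 on day 1, 3 on each of days 2, 4, 6 and 8, and 4 on day 10. Ratios of MYC to genes outside the group were not computed, so no share over all entries stands beside these counts. They are therefore not a trait shown to be particular to this group. MYC differed from day 0 by at most 1.16-fold, so the larger shifts of these ratios follow the other gene. The count of day 8 went down to 1 on leaving out day 0 replicate 1, 2, 3 or 4 or day 8 replicate 4. The log2 ratio of MYC to MAX was 5.27 ± 0.172 on day 0 and 3.97 ± 0.116 on day 1 (SD, n = 5), a difference of -1.30 with no overlap (exact permutation p = 0.00794, q = 0.0222, n = 5). The smallest p that 5 against 5 libraries allow is 0.00794. This ratio was lower on days 2 (-1.01), 4 (-0.76), 6 (-0.94) and 10 (-0.79) with the same q, and on day 8 the difference of -0.46 did not pass (q = 0.0920).

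The ratio of MYC to MNT moved up. It was 3.79 ± 0.175 on day 0 and 4.68 ± 0.170 on day 1, higher by 0.89, and the differences on the later days were 0.83, 0.75, 0.64, 0.66 and 0.74, with no overlap with day 0 on any day (exact permutation q = 0.0222 on each, n = 5). The ratios of MYC to MAX and to MNT therefore moved in opposite directions at the RNA level. On day 1 MYC itself changed by 0.17 on the log2 scale, MAX by 1.47 and MNT by -0.72. For MXD3 the ratio rose on days 1 (1.36), 8 (0.79) and 10 (0.69), and for MXD1 on day 1 (0.67). The ratio of MYC to MXI1 rose on day 1 (0.36) and was lower on day 4 (-0.28) and day 6 (-0.52). For MXD4 it rose on days 1 (0.21) and 10 (0.25) and fell on day 8 (-0.20), and for MGA it passed on day 2 (-0.55) and on no other day. Ratios of RNA give no measure of protein or of dimers, which these libraries do not hold.

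**Figure D4:**
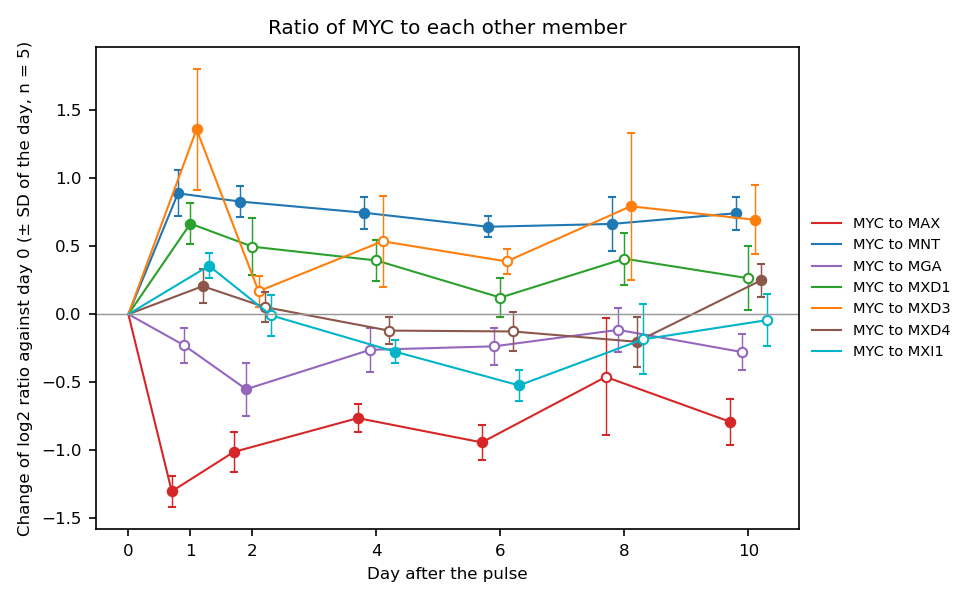
Change against day 0 of the log2 ratio of MYC to each of the other 7 genes within a library, by day (mean of 5 libraries, bars ± SD of that day, points shifted sideways). Filled points passed q ≤ 0.05 in exact permutation tests over 42 comparisons; the ratio to MAX lies below 0 on every day, at -1.30 on day 1, and that to MNT above 0 on every day, at 0.89 on day 1.

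The 8 genes did not move as 1 group across the 35 libraries. As a description, and without a test since libraries of a day share their treatment, Pearson's r of log2 CPM was highest between MNT and MXD1 (0.72), MXD4 and MXI1 (0.65) and MAX and MGA (0.63) and lowest between MAX and MNT (-0.60) and MAX and MXD3 (-0.57). MYC correlated most with MXD4 (0.57). Among 12339 other entries above the count filter, those most like MNT were KDM6B (r = 0.93), ATF3 (0.92), NFKBIZ (0.91), FOSL2 (0.91) and ZFP36 (0.91), a histone demethylase and 4 regulators known as early responders to stress or cytokines, and those least like it were UNC13C (-0.93) and EXO1 (-0.92). Most like MAX were C5orf30 (0.90), STARD8 (0.88), FGD6 (0.87), FAM63A (0.86) and MAPK14 (0.86), and least like it CD83 (-0.87) and JUND (-0.87). Most like MGA were ASXL2 (0.83), ETNK1 (0.83), LNPEP (0.81), PDE5A (0.80) and LRIG3 (0.79), and least like it SRSF5 (-0.83) and DUSP4 (-0.81).

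MYC had the loosest likeness, led by RNF103 (0.77), B4GALT1 (0.77), MRFAP1 (0.74), TERF2IP (0.74) and CSNK1D (0.73), with GEN1 (-0.81) and FAM122B (-0.78) at the other end. Most like MXD1 were ERN1 (0.89), BCL2L2 (0.89), CALCOCO1 (0.88), DCAF8 (0.88) and MBD6 (0.87), and least like it ATP5H (-0.90) and RPA1 (-0.90). ARHGAP33 (0.82), GOLGA8A (0.80), NISCH (0.79), RASA4 (0.79) and GABPB2 (0.79) were most like MXD3, with OLA1 (-0.78) and MORF4L1 (-0.76) least like it. MXD4 was closest to PLXND1 (0.84), DBP (0.84), EGFL7 (0.79), MOAP1 (0.76) and HDAC11 (0.76) and farthest from the replication helicase subunit MCM6 (-0.85) and the checkpoint kinase ATR (-0.84). MXI1 was closest to MKRN1 (0.91), HDAC11 (0.91), ADORA2A (0.90), CYTIP (0.90) and NOB1 (0.88) and farthest from SLC7A6 (-0.88) and EPT1 (-0.87). HDAC11, a histone deacetylase, was thus listed for both MXD4 and MXI1. Of the 40 genes most like a member, 3 were also found when the means of the 7 days were correlated in place of the libraries, so single names in these lists are not stable.

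Genes that MYC and MAX act on or with were read from 7 lists, beside the median of all entries tested, which was -0.06 on day 1, -0.04 on day 2, -0.02 on days 4 and 10, 0 on day 6 and -0.01 on day 8. The counts of each list are to be read beside the shares of all entries called, which were 25.4% higher and 27.3% lower on day 1, 23.2% and 24.4% on day 2, and 16.1% and 15.8% on day 10. On days 4, 6 and 8 these shares were 19% and 20.1%, 17.5% and 17%, and 18.2% and 18.6%. The shares in either direction among entries above the count filter, given above, were larger, and were not split by direction. Of 30 genes known to be activated by MYC, 21 rose and 5 fell on day 1 (median log2 fold change 0.29), 22 rose and 3 fell on day 2 (0.41), and 10 rose and 11 fell on day 10 (0.11). Between these days, 15 rose and 13 fell on day 4 (0.17), 9 rose and 14 fell on day 6 (0.07), and 15 rose and 13 fell on day 8 (0.17). CDC25A, the phosphatase that activates cyclin-dependent kinases, rose by 1.72 ± 0.10 on day 1, by 2.43 ± 0.10 on day 2 and by 1.14 ± 0.10 on day 10. The mean of ODC1, the first enzyme of polyamine synthesis, was 539 ± 27.9 CPM before the drug and 1219.6 ± 59.8 CPM on day 1 (SD, n = 5). Other members of the list went down at the same time. SLC7A5, the large neutral amino acid transporter, fell by 1.34 ± 0.06 on day 1 and 1.43 ± 0.06 on day 2, and CCND2, which encodes cyclin D2, fell by 0.91 ± 0.05, 0.77 ± 0.05 and 1.08 ± 0.05 on days 1, 2 and 10. TERT, the telomerase subunit, was among the rises of day 2 (1.53 ± 0.24), PPAT, of purine synthesis, among those of day 10 (0.69 ± 0.06), and RRP9, of ribosomal RNA processing, among the falls of day 10 (-0.56 ± 0.08). All genes named from the lists were called (edgeR, Q ≤ 0.05).

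Of 10 genes known to be repressed by MYC, 2 rose and 4 fell on day 1 (median -0.66), 2 rose and 5 fell on day 2 (-0.42), and 2 rose and 3 fell on day 10 (-0.33). In the middle of the series the list was balanced, with 4 up and 4 down on day 4 (0.03), 3 and 3 on day 6 (0.24) and 3 and 3 on day 8 (-0.11). All 3 cyclin-dependent kinase inhibitors of the CIP/KIP family were among them, and they did not share a direction. CDKN1A (p21) had a mean of 546 ± 83.2 CPM before the drug, 58.3 ± 9.34 CPM on day 1 and 41.7 ± 5.05 CPM on day 10 (SD, n = 5), a log2 fold change of -3.23 ± 0.10 on day 1 (Q = 2.59e-28). CDKN1C (p57) rose by 1.25 ± 0.15 on day 1 and 1.98 ± 0.14 on day 2, and CDKN1B (p27) by 0.42 ± 0.07 on day 1 and 1.10 ± 0.07 on day 10. THBS1 fell on days 1 and 2 from 1.51 ± 0.662 CPM, near the limit of these counts, and GADD45A, a growth arrest gene, fell by 1.40 ± 0.09 on day 10.

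Among the proteins that MYC and its antagonists recruit, the lists were mixed. Of 16 MYC cofactors, 7 rose and 6 fell on day 1 (median 0.09), 6 rose and 4 fell on day 2 (0.11), and 5 rose and 5 fell on day 10 (0.01). The counts were 4 up and 6 down on day 4 (0.03), 5 and 6 on day 6 (-0.03), and 3 and 6 on day 8 (-0.12). The 2 largest rises were those of RUVBL2 (1.95 ± 0.28) and RUVBL1 (1.42 ± 0.08) on day 1, AAA+ ATPases of the TIP60 complex, while KAT5 (TIP60 itself) fell by 0.34 ± 0.07 and KAT2A by 0.40 ± 0.13. RUVBL1 was still higher on day 10 (0.62 ± 0.08), as was ACTL6A (0.43 ± 0.06), and CDK9, the elongation kinase, was lower on day 2 (-0.58 ± 0.07) and day 10 (-0.50 ± 0.07). Of 16 subunits of the SIN3 and histone deacetylase corepressor, through which MNT and the MXD proteins act, 11 rose and 3 fell on day 1 (median 0.40), 7 rose and 3 fell on day 2 (0.18), and 6 rose and 3 fell on day 10 (0.08), with 9 up and 3 down on day 4 (0.17), 7 and 5 on day 6 (0.02), and 9 and 4 on day 8 (0.18). BRMS1 rose by 1.03 ± 0.07 on day 1 and fell by 0.44 ± 0.07 on day 10, SAP130 rose by 0.88 ± 0.07 on day 1, SAP30 by 1.07 ± 0.10 and RBBP7 by 0.79 ± 0.05 on day 2, and the scaffold SIN3B fell by 0.77 ± 0.09 on day 2. ING2 fell on days 1 (-0.38 ± 0.10) and 10 (-0.51 ± 0.10), ARID4A on day 1 (-0.23 ± 0.08) and SUDS3 on day 2 (-0.26 ± 0.05).

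Of 10 partners of MGA in its Polycomb complex, 5 rose and 1 fell on day 1 (median 0.37), 7 rose and 1 fell on day 2 (0.60), and 4 rose and 2 fell on day 10 (0.19). Days 4, 6 and 8 were more even, with 4 up and 3 down (0.18), 3 and 4 (0.02), and 3 and 4 (0.13). L3MBTL2 rose by 1.21 ± 0.08 and PCGF6 by 0.77 ± 0.25 on day 1, and YAF2 by 0.87 ± 0.17 and TFDP1 by 0.77 ± 0.07 on day 2. RYBP, the paralog of YAF2 that occupies the same place in the complex, was the single fall on days 1 (-1.15 ± 0.10) and 2 (-1.17 ± 0.09), and it was still lower on day 10 (-0.70 ± 0.09), when YAF2 was higher (0.82 ± 0.17), CBX3 was higher (0.39 ± 0.05) and RING1 was lower (-0.23 ± 0.08).

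Of 18 genes that set the stability of the MYC protein, 14 rose and 2 fell on day 1 (median 0.49), 12 rose and 3 fell on day 2 (0.41), and 8 rose and 2 fell on day 10 (0.06). On days 4, 6 and 8 the counts were 8 up and 4 down (0.21), 6 and 2 (0.05), and 6 and 3 (0.04). The largest rises were of mitotic kinases that also stabilize MYC or MYCN protein. By day 2, AURKA had gone from 6.47 ± 0.656 to 48.2 ± 3.97 CPM, and PLK1 from 18.4 ± 3.501 to 126 ± 5.42 CPM (SD, n = 5), and both were still higher on day 10, by 1.44 ± 0.14 and 1.56 ± 0.11. KIAA1524, which encodes the phosphatase inhibitor CIP2A, rose by 0.76 ± 0.20 on day 1. FBXW7, the ubiquitin ligase subunit that marks MYC for the proteasome, fell by 0.34 ± 0.11 on day 1 and 0.43 ± 0.11 on day 2. USP36, a deubiquitinase that removes this mark in the nucleolus, fell by 0.57 ± 0.09, 0.54 ± 0.09 and 0.48 ± 0.09 on days 1, 2 and 10. FBXO28 fell by 0.28 ± 0.07 on day 10.

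Of 5 MYC paralogs and members of the parallel MLX branch, 2 rose and 1 fell on day 1 (median 0.16), 4 rose and none fell on day 2 (0.39), and 2 rose and none fell on day 10 (0.29), with 3 up and none down on each of days 4 (0.28), 6 (0.29) and 8 (0.37). MYCL was at 10.1 ± 2.30 CPM on day 0, 5.51 ± 0.967 CPM on day 1 and 14.8 ± 1.22 CPM on day 2 (SD, n = 5), so that it fell and then rose. MYCN stood at 0.193 ± 0.203 CPM on day 0 and 1.04 ± 0.164 CPM on day 2, a few counts a library. MLX, the MAX-like hub of the branch, rose by 0.29 ± 0.09 on day 1 and 0.34 ± 0.09 on day 10, and its partner MLXIP by 0.16 ± 0.07 and 0.27 ± 0.07.

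**Figure D5:**
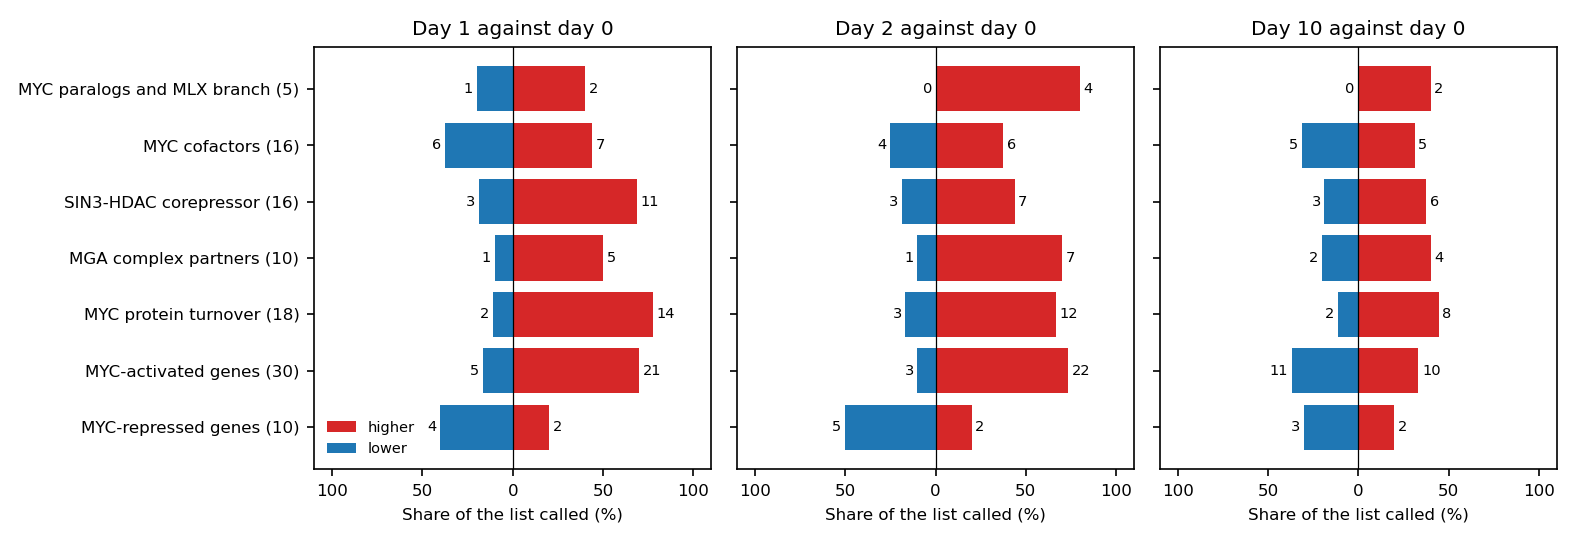
Share of each list called (edgeR, Q ≤ 0.05) against day 0 on days 1, 2 and 10. Red bars to the right are genes higher and blue bars to the left genes lower, as percent of the list, with the number of genes at the end of each bar and the size of the list in parentheses; 21 of 30 MYC-activated genes were higher on day 1 and 10 on day 10.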

How the data were processed

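RNA-seq libraries of RPMI-8226 cells (35, 5 on each of 7 days) were analysed from the count table that the authors deposited. These estimated counts, whole numbers without normalization, were made by the authors with Kallisto 0.44.0 on the GENCODE 28 transcriptome of GRCh38.p12 and tximport, per gene symbol and transcript biotype, so a gene can have several entries. R 3.5.0 and DESeq2 1.25.8 also stand in the submitters' processing notes. Samples were grouped by the day in their labels.

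Protein-coding entries with any count (17999) were fitted with edgeR 4.0.16 (glmQLFit and glmQLFTest, TMM factors 0.929 to 1.08, day as factor over all 35 libraries, R 4.3.3). Q is the Benjamini–Hochberg adjusted p over all entries of a comparison, and Q ≤ 0.05 was a call. CPM was computed here from these factors. SE is the absolute log2 fold change divided by the square root of F. Ratios and protein-coding shares (genes with at least 50 counts) were compared by exact two-sided permutation tests (252 assignments), with adjusted values (q) over 42 and 36 tests. Correlations used log2 CPM with a prior count of 2. The method was also run on simulated data, with levels and spread taken from these libraries, and the results of that run are not given here. Gene positions are of GENCODE 44 and promoter sequences of RefSeq.

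Members and lists were chosen with earlier results of these data known. All 8 members were named, and of each list the 2 largest rises and falls among calls on days 1, 2 and 10, and for each member the 5 entries with the highest r and the 2 with the lowest. Alternatives were DESeq2 1.42.0, other filters, scalings, prior counts and fits, and each library left out in turn. No sequencing batch is given in the sources used here.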

Additional observations from a re-analysis of the deposited data

Results flagged for a closer look

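Of 98 groups of 5 libraries that were checked, 6 held a library far from the other 4 by Dixon's test at the 95% level, where chance flags about 1 in 20. Replicate 1 was the highest library for MNT on day 2 at 40.5 CPM, where the others were at 32.8 to 34.7 CPM, for MNT on day 8 at 62.2 CPM (others 47.0 to 50.4), for MXD1 on day 8 at 46.6 CPM (others 37.4 to 39.5) and for the protein-coding share of MXD4 on day 4 at 86.0% (others 79.1% to 80.9%). Replicate 5 was the lowest for MAX on day 6 at 47.5 CPM (others 53.6 to 54.9) and for MXD1 on day 4 at 31.9 CPM (others 36.9 to 38.7). MNT and MXD1 were thus both high in day 8 replicate 1. The low MAX level of day 8 replicate 5, 25.5 CPM, did not pass this test, since the other 4 libraries of day 8 were themselves spread.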

How the results depend on the processing

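No call changed sign under any alternative. Some differences that were not called did, such as those of MXD4 on day 10 (0.13) and MXD3 on day 6 (0.02) in symbol totals. MAX, MNT and MGA were called against day 0 on every day under every alternative at Q ≤ 0.05. A required fold above 2 cut the members called against day 0 to 2, 1, 0, 1, 0 and 0 on days 1, 2, 4, 6, 8 and 10, and to 0 in each of the 5 steps between neighbouring days. Without scaling factors, 1 member was called from day 4 to day 6. Their omission moved the median of all entries by at most 0.061, including entries below the count filter, and some members by more. MYC went from -0.19 to -0.06 on day 2 and from 0.06 to 0.17 on day 4. A fit of only the 2 days compared called 0 members at the step into day 8 and 1 at the step into day 10, where symbol totals also called 1. The likeness lists kept 3 of 40 genes with day means. With 1 library left out, the members called ranged from 0 to 2 at the step into day 6, from 0 to 1 at that into day 8 and from 1 to 3 at that into day 10, and the ratios of MYC called on day 8 ranged from 1 to 3. The cause was not tested beyond the smaller number of libraries. Of 616 fold changes of members under other settings, 14 lost and 15 gained a call, and of 880 with 1 library left out, 43 lost and 12 gained one. MYC on day 2 was lost in symbol totals (-0.12), MXD3 on day 4 (-0.38) and day 10 (-0.44) without scaling factors, and DESeq2 added MXD3 on day 2 (-0.41).

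The methods of the study describe subcultures sampled over the days, but replicate numbers are not stated to pair libraries across days. Deviations of same-numbered libraries of different days correlated between -0.121 and 0.136 (105 pairs, 2 above 0.1). Of 35 libraries, 14 correlated best with their own number among the 5. That is more often than a random choice among the 5 numbers would give. Whether the numbers pair libraries was not settled, and the main fits hold no such pairing. With a replicate block, 8 instead of 7 members were called on day 8, through MXD1 (-0.21), and no other member call changed. With 21 to 123 counts of MXD3 a library, its late differences are at the limit of this depth.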
